A study of Homo sapiens with 3 samples.

Results

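The regions described are the 50 kb windows of chromosome 16 and their contacts in trans, that is, with captured DNA on another chromosome. All 1796 windows that the tables list for chromosome 16 were taken, of 60669 windows in all; the other 58873 lie on other chromosomes. Contacts were counted by Capture Hi-C, in which DNA ends that lie near each other in fixed nuclei are joined, and joined pairs holding a chosen region are then pulled out by hybridisation. The captured regions used were those on chromosomes 2, 3, 8, 9 and 18, of which the chromosome 2, 8 and 9 regions hold the breast cancer risk loci that the study set out to examine. A sixth captured region lies on chromosome 16 itself, from 73599933 to 74183980 (GRCh37), and served here as a separate measurement. BT483 is a line from a primary invasive ductal carcinoma of the breast, SUM44 a breast cancer line from a pleural effusion grown with 1 nM estradiol, and GM06990 a lymphoblastoid line of B lymphocytes. The medium held 20% serum and insulin for BT483, 10% serum without phenol red for SUM44 and 15% serum for GM06990, so medium and line cannot be told apart. All 3 were digested with HindIII after fixation in 2% formaldehyde for 5 min; BT483 was lysed with trypsin and the other lines with a dounce. Each line was 1 sample with 2 replicate count columns (n = 2), and nothing states that these were separate cultures, so every spread and p-value given here may be technical.

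Each chromosome fills its own territory in the interphase nucleus, and contacts between chromosomes are few, spread over many windows and favoured between active, gene-dense stretches. A trans count depends on how often a window meets the captured DNA. It also depends on how much DNA of the window and of the captured region the cells hold, and on how well reads map to both. These cannot be told apart in the tables. As background, the part of the long arm nearest the centromere carries, in the order of the RefSeq annotation, TOX3 (a chromatin protein gene beside a breast cancer risk variant), CHD9 (a chromatin remodeller), RBL2 (a pocket protein of the retinoblastoma family), FTO (an RNA demethylase), IRX3, IRX5 and IRX6 (homeobox transcription factors), MMP2 (a gelatinase), SLC6A2 (the noradrenaline transporter), CES1 (a carboxylesterase) and GNAO1 (a G protein subunit). That annotation uses another genome build than the counts, so no gene was placed in a window.

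The 2 BT483 replicates held 1290205 and 3797017 trans contacts, the SUM44 replicates 1532210 and 1532750, and the GM06990 replicates 1483321 and 3145707. Of the contacts of the 5 regions, 25886 and 77951 reached chromosome 16 in BT483, 39778 and 39713 in SUM44, and 30090 and 64797 in GM06990. To set regions of unequal capture side by side, each count was divided by the mean trans window of its captured region and replicate, and these levels were averaged over windows and then over the 5 regions; a level of 1 is an average trans window. No contact was counted in any column in the 223 windows from 35300001 to 46450000, which was taken as the divide between the arms. The p arm then held 706 windows. The q arm held 67 windows in a segment from 52700001 to 56050000, 125 windows before it and 675 windows beyond it.

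The replicates of BT483 did not agree along chromosome 16, and most BT483 levels below are therefore given for both. Ratios of BT483 levels to GM06990 levels use the mean of the replicates, which can hide such disagreement. Over the 74 bins of 1 Mb outside the segment, their levels correlated with r = 0.516, against 0.970 between the SUM44 replicates and 0.966 between the GM06990 replicates; the bins share libraries and mappability, so these are descriptions. BT483 replicate 1 followed GM06990 with r of 0.911 and 0.910, and BT483 replicate 2 with r of 0.688 and 0.686. The ratio of replicate 2 to replicate 1 ran from 0.375 to 1.62 over 79 bins in BT483, with 18 bins below 1 over 1.5. These 18 bins lay in blocks at 5 to 11, 24 to 27, 31 to 33, 34 to 35, 59 to 64 and 73 to 74 Mb. In the bin from 26 to 27 Mb the BT483 levels were 1.40 and 0.524, against 1.12 and 1.20 in GM06990. No bin passed that limit in SUM44, where the ratio ran from 0.689 to 1.19, or in GM06990, where it ran from 0.813 to 1.34.

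The segment of 3.35 Mb stood far above the rest of chromosome 16 in SUM44 and not in the other lines. Its mean level was 1.14 and 1.40 in the BT483 replicates, 7.21 and 7.17 in the SUM44 replicates, and 1.27 and 1.28 in the GM06990 replicates. Both SUM44 replicates lay far above the other 4, and the BT483 replicates lay on either side of GM06990. The ratio of the SUM44 to the GM06990 mean was 5.64. The ends of the segment were chosen from these counts, so this is a description without a test. The segment took 4.96% (exact Clopper-Pearson 95% interval 4.70 to 5.23) and 6.88% (6.71 to 7.06) of the contacts with chromosome 16 in BT483. It took 27.8% (27.3 to 28.2) and 27.9% (27.4 to 28.3) in SUM44, and 5.67% (5.41 to 5.93) and 5.61% (5.44 to 5.79) in GM06990. These intervals cover at most counting error. Pairs were amplified without molecular identifiers, so contacts may not be independent, and the intervals of the BT483 replicates do not overlap.

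**Figure D1:**
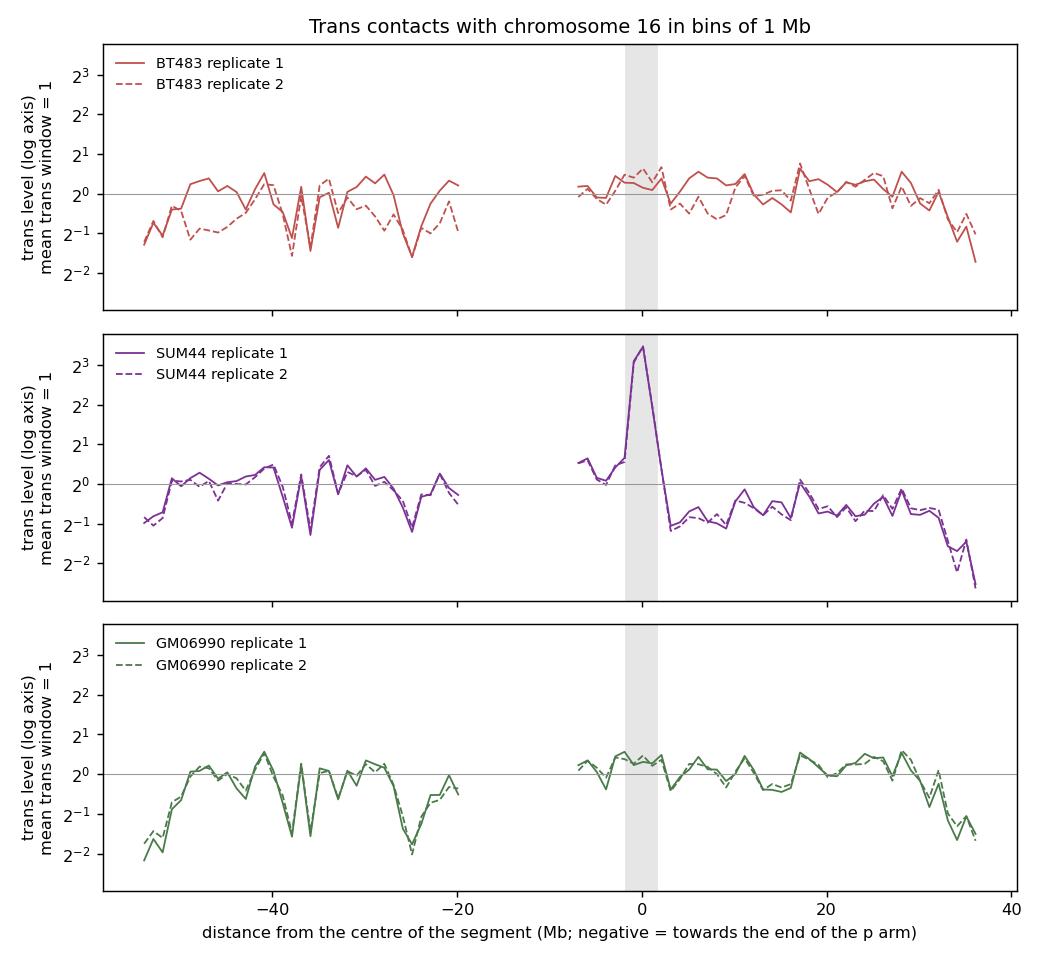
Trans level of chromosome 16 in bins of 1 Mb against distance from the centre of the segment in Mb, on a log axis, with a panel for BT483, SUM44 and GM06990 and a line for each replicate; the shaded band is the segment, and the break is the stretch without contacts. SUM44 reaches 11.0 in both replicates in the bin that starts at 54 Mb and lies below 1 in most bins beyond the segment, while the BT483 replicates part from each other on the p arm.

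Against the mean of the rest of chromosome 16, the segment was at 1.31 and 1.90 times in BT483, 9.72 and 9.86 times in SUM44, and 1.59 and 1.58 times in GM06990. The rest includes the windows without contacts, which lowers it alike in every line. In SUM44, 42 of the 67 windows of the segment were over 5 times the median trans window, where 0.839% of all windows were. In BT483 none of the 67 was, with 0.142% of all windows over that limit, and in GM06990 none was, with 0.0824%. The 5 tallest windows of chromosome 16 in SUM44 all lay in the segment. The tallest, from 53750001 to 53800000, had 1.32 and 2.10 in BT483, 18.9 and 21.9 in SUM44, and 1.16 and 1.31 in GM06990. The others started at 54200001, 53850001, 54000001 and 54650001, with mean levels of 17.9, 17.1, 16.2 and 15.9 in SUM44.

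The raised level was not even along the segment, which fell into steps. The first 10 windows, up to 53200000, were close to their level in GM06990: 1.33 and 1.43 in BT483, 1.82 and 1.62 in SUM44, and 1.58 and 1.44 in GM06990. In the next 39 windows, from 53200001 to 55150000, SUM44 had 10.3 in both replicates, against 1.11 and 1.43 in BT483 and 1.19 and 1.27 in GM06990. This high step of 1.95 Mb was 8.37 times the GM06990 mean. In the last 18 windows, from 55150001 to 56050000, SUM44 had 3.46 and 3.48, against 1.10 and 1.32 in BT483 and 1.28 and 1.20 in GM06990. This low step of 0.9 Mb was 2.81 times the GM06990 mean. The positions of the steps were read from these levels. The ratio of SUM44 to GM06990, compared over 10 windows on each side of every boundary, jumped most at 53150001 in SUM44 replicate 1 and at 53300001 in replicate 2. The largest drops came at 56050001 in replicate 1 and 56100001 in replicate 2, and the next at 55000001 in both.

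**Figure D2:**
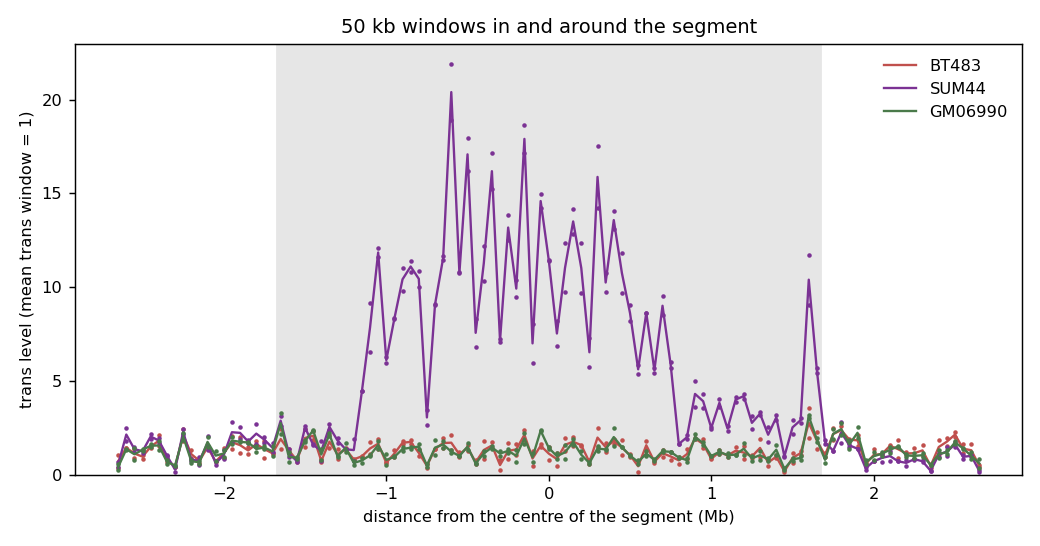
Trans level of each 50 kb window in and around the segment against distance from its centre in Mb; lines are means of the replicates of BT483, SUM44 and GM06990, points are replicates, and the shaded band is the segment. SUM44 climbs well before the centre, reaches 20.4 at its tallest window, and drops to a lower step before the far end.

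The windows at the ends show how the segment was bounded. At the near end, the 3 windows outside, which start at 52550001, 52600001 and 52650001, had mean levels of 2.19, 1.87 and 1.43 in SUM44 and 1.38, 1.45 and 1.25 in GM06990. The 3 windows inside, which start at 52700001, 52750001 and 52800001, had 2.88, 1.16 and 0.725 in SUM44 and 2.75, 0.962 and 0.906 in GM06990. The near end thus carried no raised level in SUM44. Further in, the window that starts at 53050001 had 1.95 and 1.70 in SUM44 against 1.02 and 0.964 in GM06990. The steep rise began with the window that starts at 53200001. It had 1.02 and 0.949 in BT483, 4.45 and 4.45 in SUM44, and 0.652 and 0.878 in GM06990. At the far end, the 3 windows inside, which start at 55900001, 55950001 and 56000001, had 2.91, 10.4 and 5.56 in SUM44 and 0.895, 3.11 and 1.88 in GM06990. The 3 windows outside, which start at 56050001, 56100001 and 56150001, had 1.75, 1.28 and 2.25 in SUM44 and 0.798, 2.18 and 2.44 in GM06990. The window that starts at 55950001 was tall in each line, with 1.97 and 3.57 in BT483 and 3.20 and 3.03 in GM06990 beside 9.07 and 11.7 in SUM44.

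Each of the 5 captured regions saw the segment raised in SUM44. The segment and its steps were chosen from the counts of these same regions, so their agreement is a description and no independent support. In the high step, the chromosome 9 region had the largest ratio of SUM44 to GM06990, 10.3, from levels of 13.5 and 12.6 in SUM44 against 1.21 and 1.32 in GM06990. The chromosome 18 region had the smallest, 6.21, from 8.37 and 8.57 in SUM44 against 1.31 and 1.41 in GM06990. The chromosome 2, 8 and 3 regions lay between them, at 9.79, 8.49 and 7.46. In the low step the ratios were 3.36 for chromosome 8, 3.29 for chromosome 9, 2.69 for chromosome 3, 2.68 for chromosome 2 and 2.13 for chromosome 18. Every region showed the larger ratio in the high step. Within the captured regions, 58 captured windows of 50 kb were examined one by one. In SUM44, 56 of them had at least 200 contacts with chromosome 16 outside the segment. Among these the fold of the segment over the rest ran from 6.14 to 13.0 with a median of 9.56. It ran from 1.03 to 2.15 over 58 windows in BT483 and from 1.07 to 2.27 over 58 windows in GM06990. Windows of 1 captured region share its fragments and libraries and are not replicates.

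**Figure D3:**
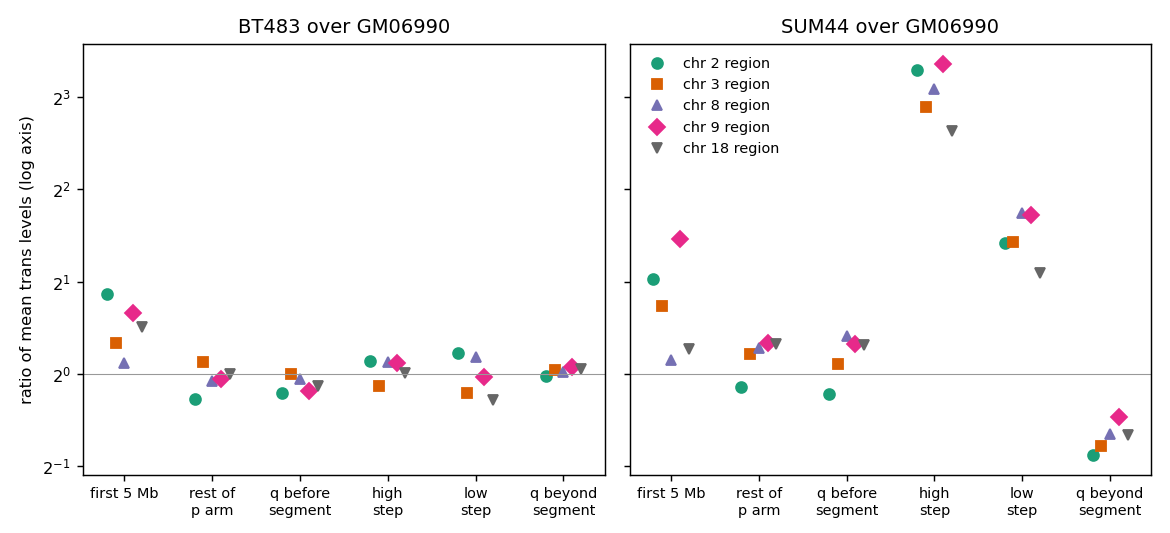
Ratio of mean trans levels, BT483 over GM06990 on the left and SUM44 over GM06990 on the right, on a log axis, for 6 stretches of chromosome 16; each symbol is a captured region. In SUM44 all 5 regions lie above 1 in both steps (6.21 to 10.3 and 2.13 to 3.36) and below 1 beyond the segment (0.542 to 0.720), and they spread most in the first 5 Mb.

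Beyond the segment SUM44 had fewer trans contacts than the other lines, and before it slightly more. On the q arm beyond the segment the level was 1.07 and 0.984 in BT483, 0.627 and 0.622 in SUM44, and 1.00 and 1.01 in GM06990. Both SUM44 replicates lay below all others, at 0.622 of the GM06990 mean. On the q arm before the segment the level was 1.10 and 0.992 in BT483, 1.32 and 1.30 in SUM44, and 1.12 and 1.14 in GM06990. Both SUM44 replicates were the highest there, at 1.16 times GM06990, but not from every captured region: the ratio was 1.33 for chromosome 8, 1.25 for both chromosome 9 and chromosome 18, 1.08 for chromosome 3 and 0.861 for chromosome 2. On the p arm it was 0.919 and 0.691 in BT483, 0.982 and 0.958 in SUM44, and 0.805 and 0.807 in GM06990. SUM44 was again above GM06990, by 1.20 times, while the BT483 replicates fell on either side of GM06990.

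The order of the arms therefore differed between the lines once the segment was set aside. The p arm over the q arm outside the segment was 0.855 and 0.702 in BT483, 1.33 and 1.32 in SUM44, and 0.789 and 0.786 in GM06990. The p arm was the lower arm in both BT483 and both GM06990 replicates and the higher arm in both SUM44 replicates. With 2 replicates a line, the smallest p of an exact two-sided permutation test is 0.33, so none was used. With the segment kept in the q arm, the SUM44 ratio turned to 0.788. The q arm also differed within itself: the stretch before the segment over the stretch beyond it was 1.03 and 1.01 in BT483, 2.11 and 2.09 in SUM44, and 1.12 and 1.14 in GM06990. Set beside the p arm, the part of the q arm beyond the segment was the lower one in SUM44, with a p over distal ratio of 1.56 and 1.54, against 0.859 and 0.703 in BT483 and 0.803 in both GM06990 replicates.

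**Figure D4:**
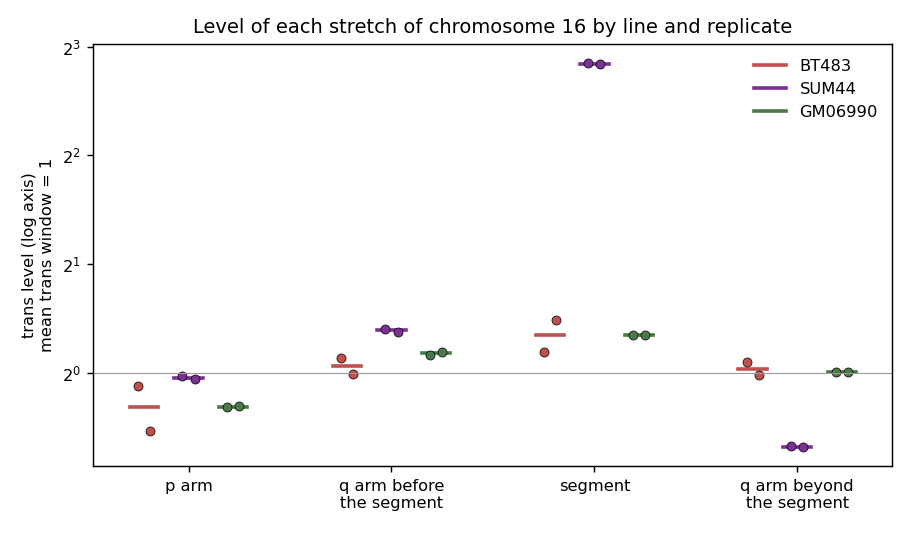
Trans level of each stretch of chromosome 16 on a log axis for BT483, SUM44 and GM06990, left to right in each group; points are the 2 replicates and bars their mean. SUM44 stands at 7.19 in the segment and 0.625 beyond it, where GM06990 stands at 1.27 and 1.00.

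The low level beyond the segment ran along most of the distal arm in SUM44. Of the 34 bins of 1 Mb wholly beyond the segment, 33 had both SUM44 replicates below both GM06990 replicates, and none had both above. The bin from 56 to 57 Mb, which holds the end of the segment, was left out of these. It had 1.29 in both SUM44 replicates and 1.40 and 1.29 in GM06990. Over the 34 bins the ratio of SUM44 to GM06990 ran from 0.455 to 1.05 with a median of 0.616. On the p arm, 24 of 35 bins had both SUM44 replicates above both of GM06990 and 2 had both below, with a median ratio of 1.24. Before the segment 3 of 5 bins had both above and none both below. BT483 was mixed: 10 p arm bins had both replicates above GM06990 and 3 below, and 11 distal bins had both above and 3 below. Every captured region gave a distal level below GM06990 in SUM44, with ratios of 0.720 for chromosome 9, 0.633 for chromosome 8, 0.631 for chromosome 18, 0.581 for chromosome 3 and 0.542 for chromosome 2. On the p arm the regions differed more. The ratio was 1.37 for chromosome 9, 1.25 for chromosome 18 and 1.20 for both chromosome 8 and chromosome 3, but 0.994 for chromosome 2. The SUM44 levels seen from chromosome 2 were 0.794 and 0.801, against 0.793 and 0.811 in GM06990.

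Window by window, the changes of SUM44 on the distal arm were nearly all falls. Counts of all windows in the genome were fitted with edgeR's quasi-likelihood test, with the trans totals as offsets and Benjamini-Hochberg adjustment at 0.05. Of the 633 distal windows tested on chromosome 16, 1 rose and 127 fell in SUM44 over GM06990, with a median log2 ratio of -0.75. Over all 54654 windows tested, 6.45% rose and 9.45% fell, with a median of -0.18. Of the 579 p arm windows, 30 rose and 1 fell, with a median of 0.19, and of the 124 windows before the segment 2 rose and none fell, with a median of 0.14. The 20.1% that fell on the distal arm was above the share over all windows, as it was with TMM factors, an alternative scaling, at 7.11% against 4.83%, but not without GM06990 replicate 2, at 0.158% against 0.278%. The 5.18% that rose on the p arm was below the share over all windows, but that comparison turned round with TMM factors, at 15.9% against 9.51%, and with DESeq2 size factors, at 15.9% against 9.55%. In the segment 57 of 67 windows passed upwards with a median of 2.68, which describes the choice of the segment and is no test of it.

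The number of calls changed with every replicate left out, and the medians changed little. Each such fit left a line without a second replicate, and all lines shared the estimate of the spread. The counts therefore cannot show that any library carried the calls. Without SUM44 replicate 1 or 2 the distal windows that fell numbered 6 and 4, and without GM06990 replicate 1 or 2 they numbered 7 and 1. Without BT483 replicate 1 or 2 they numbered 283 in each case. The distal median stayed between -0.77 and -0.74 in these 6 fits. The p arm windows that rose numbered 1 and 0 without SUM44 replicate 1 or 2, 0 without either GM06990 replicate and 80 without either BT483 replicate, with medians from 0.15 to 0.24. Scaling by TMM factors moved the median of all windows to -0.02 and turned the split outside the segment, which was 33 higher and 128 lower with trans totals, to 102 higher and 45 lower. Relative to the median of all windows, the p arm was at 0.37, the stretch before the segment at 0.32 and the distal arm at -0.57 with trans totals, and at 0.52, 0.47 and -0.42 with TMM factors.

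The windows with the largest changes in SUM44 outside the segment lay in these stretches. The lowest, from 61500001 to 61550000, had 14 and 26 contacts in BT483, 7 and 0 in SUM44, and 17 and 45 in GM06990. Its log2 ratio of SUM44 to GM06990 was -2.63 ± 0.64 (SE, edgeR adjusted p = 0.0116). The window from 73350001 to 73400000, close to the captured region of chromosome 16, had 20 and 35 contacts in BT483, 4 and 11 in SUM44, and 30 and 69 in GM06990, a log2 ratio of -2.24 ± 0.43 (edgeR adjusted p = 0.0029). The others started at 61200001, 73400001 and 87300001, with log2 ratios of -2.31, -2.06 and -2.06. In each of these 5 windows both SUM44 replicates held fewer contacts than either GM06990 replicate. The 5 highest windows all lay on the p arm, and 3 of them within its first 5 Mb. The highest, from 2000001 to 2050000, had 6 and 32 contacts in BT483, 27 and 24 in SUM44, and 9 and 14 in GM06990, with a log2 ratio of 1.57 ± 0.39 (edgeR adjusted p = 0.0137). The windows that start at 3150001, 2700001, 28550001 and 32350001 followed with 1.49, 1.47, 1.42 and 1.35. The counts in these windows are small, and the depth of the libraries differs.

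The first 5 Mb of the p arm stood above GM06990 in both breast lines. The level was 0.605 and 0.614 in BT483, 0.749 and 0.739 in SUM44, and 0.395 and 0.457 in GM06990. The 3 lines did not overlap, and BT483 was at 1.43 times and SUM44 at 1.75 times GM06990. This was a stretch in which the BT483 replicates stood close together. The captured regions spread widely: in SUM44 the ratio to GM06990 was 2.75 for chromosome 9, 2.04 for chromosome 2, 1.67 for chromosome 3, 1.20 for chromosome 18 and 1.10 for chromosome 8. In BT483 it was 1.82 for chromosome 2, 1.57 for chromosome 9, 1.42 for chromosome 18, 1.26 for chromosome 3 and 1.09 for chromosome 8. The 5 Mb limit was set with the levels known.

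Few windows of chromosome 16 were called in BT483 over GM06990, in a fit whose BT483 replicates disagreed. Outside the segment 6 of 1336 windows rose and 9 fell (edgeR's quasi-likelihood test), or 0.449% and 0.674%, where 4.32% rose and 4.21% fell over all windows. In the segment none of the 67 windows passed in either direction, none had an unadjusted p under 0.05, and DESeq2 called none. Of the 1336 windows outside it, 131 had an unadjusted p under 0.05. The window with the largest rise, from 600001 to 650000, had 9 and 27 contacts in BT483, 6 and 12 in SUM44, and 2 and 5 in GM06990, with a log2 ratio of BT483 to GM06990 of 2.14 ± 0.57 (edgeR adjusted p = 0.0311). All 5 of the largest rises lay within the first 2.5 Mb of the p arm. The largest fall, from 22550001 to 22600000, had 4 and 6 contacts in BT483, 10 and 11 in SUM44, and 10 and 22 in GM06990, at -1.80 ± 0.54 (edgeR adjusted p = 0.0438). These counts turned on the BT483 replicate used: without replicate 1, 56 windows outside the segment rose and 230 fell, and without replicate 2, 17 rose and 2 fell. Without any 1 replicate of SUM44 or of GM06990 none was called.

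The breast lines were also compared with each other in the same fit, which shares their libraries with the comparisons above. The shares over all windows given here are of this fit, and counts from other fits have none beside them. Of 633 distal windows, 128 rose and 1 fell in BT483 over SUM44, with a median log2 ratio of 0.75, where 9.31% rose and 7.56% fell over all windows. On the p arm 1 of 579 windows rose and 16 fell, with a median of -0.34; the 2.76% that fell was below the share over all windows. Without SUM44 replicate 1 or 2 the distal windows that rose numbered 7 and 8, without GM06990 replicate 1 or 2 they numbered 40 and 39, and without BT483 replicate 1 or 2 they numbered 227 and 161. The p arm windows that fell numbered 0 without any 1 replicate of SUM44 or GM06990, 145 without BT483 replicate 1 and 22 without BT483 replicate 2. With TMM factors 39 distal windows rose and 53 p arm windows fell, and the split outside the segment, which was 129 higher and 18 lower with trans totals, turned to 39 higher and 67 lower.

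Some windows were tall in every line. The window from 33950001 to 34000000 had 12.3 and 10.8 in BT483, 6.50 and 6.69 in SUM44, and 10.7 and 8.24 in GM06990. The window from 32500001 to 32550000 had 8.54 and 5.62 in BT483, 11.2 and 9.90 in SUM44, and 6.75 and 6.08 in GM06990. These were the tallest windows of BT483 and GM06990 and the tallest of SUM44 outside the segment. The third in BT483 and GM06990, from 71050001 to 71100000, had 4.18 and 6.52 in BT483, 3.40 and 3.24 in SUM44, and 4.57 and 4.22 in GM06990. Among full bins of 1 Mb, which leaves out the short bin at the end of the q arm, the lowest on the q arm was the one from 88 to 89 Mb in all 3 lines, at 0.432 and 0.512 in BT483, 0.310 and 0.213 in SUM44, and 0.317 and 0.403 in GM06990. The highest p arm bin was the one from 13 to 14 Mb in BT483 and GM06990, with means of 1.31 and 1.46, and the one from 20 to 21 Mb in SUM44, at 1.52 and 1.63 against 1.06 in both GM06990 replicates.

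Taken whole, chromosome 16 hid these contrasts. Its mean level was 0.823 ± 0.0848 in BT483, 0.975 ± 0.0101 in SUM44 and 0.821 ± 0.0028 in GM06990 (SD, n = 2 each). Among the 23 chromosomes it ranked number 14 in BT483, 11 in SUM44 and 20 in GM06990. The SUM44 replicates were above those of both other lines. By the median over windows of these levels, in place of the mean, BT483 was at 0.797, SUM44 at 0.639 and GM06990 at 0.789.

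The captured region on chromosome 16 gave a measurement of the segment that had no part in choosing it. Its contacts beyond 5 Mb on its own chromosome, called far cis, reach the segment at distances of 17.5 to 20.8 Mb, and each count was divided by the mean far cis window of the region and replicate. The far cis level of the segment was 0.442 and 0.763 in BT483, 1.41 and 1.44 in SUM44, and 2.05 and 1.93 in GM06990. The 3 lines did not overlap, and both breast lines lay below GM06990, BT483 at 0.303 and SUM44 at 0.717 of its mean. In the high step the far cis level was 0.347 and 0.656 in BT483, 1.34 and 1.39 in SUM44, and 1.96 and 1.83 in GM06990. In the low step it was 0.340 and 0.622 in BT483, 0.957 and 1.03 in SUM44, and 2.23 and 2.00 in GM06990. In the first 10 windows it was 0.999 and 1.43 in BT483, 2.50 and 2.38 in SUM44, and 2.10 and 2.18 in GM06990. In both steps SUM44 thus stood above GM06990 in trans and below it in far cis, while in the first 10 windows it was at 1.14 times GM06990 in both measurements.

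**Figure D5:**
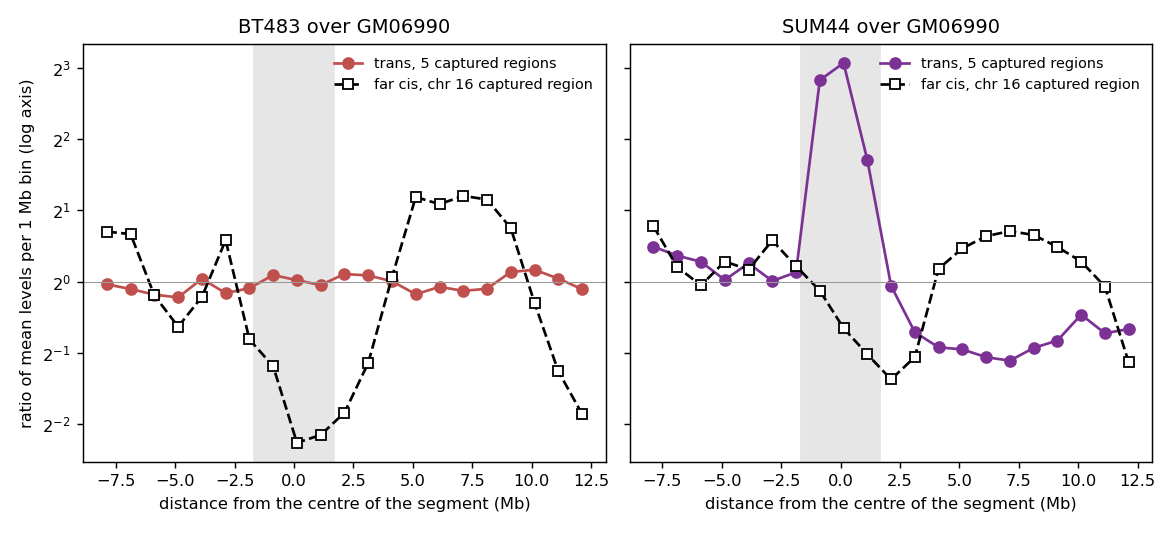
Ratio to GM06990 per bin of 1 Mb against distance from the centre of the segment, on a log axis, with BT483 on the left and SUM44 on the right; filled circles are trans levels from 5 captured regions and open squares far cis levels from the chromosome 16 captured region. In SUM44 the trans ratio peaks inside the shaded segment while the far cis ratio falls through it to 0.386 just beyond. In BT483 the trans ratio of the replicate mean stays near 1 and the far cis ratio falls to 0.208. The BT483 replicates, not drawn apart here, had trans ratios of 1.15 and 0.621 in the bin that starts at 59 Mb.

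Tested over all far cis windows of the 6 captured regions with edgeR's quasi-likelihood test, none of the 67 segment windows rose and 33 fell in SUM44 over GM06990, with a median log2 ratio of -0.64. Over the 12185 windows tested 13.2% rose and 21.5% fell, with a median of -0.16. This share and those given below are of the main fit, and counts from other fits have none beside them. DESeq2 called 12 lower and none higher. Of the 38 windows of the segment with an unadjusted p under 0.05, 33 thus held after adjustment. By step, 0 of 10 windows fell before the high step, 17 of 39 in the high step and 16 of 18 in the low step. The windows that fell numbered 13 without either SUM44 replicate, 13 and 17 without GM06990 replicate 1 or 2, and 40 without either BT483 replicate, when 3 also rose. In BT483 over GM06990, 60 of 67 fell and none rose, with a median of -1.89, where 9.47% rose and 12.4% fell over all windows. That count was 59 without BT483 replicate 1 and 63 without replicate 2, and 38 with TMM factors. In BT483 over SUM44, 56 of 67 fell and none rose, with a median of -1.17, where 14.4% rose and 9.45% fell over all windows. That count was 36 and 34 without SUM44 replicate 1 or 2, and 8 with TMM factors.

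The far cis fall was not bounded by the segment. In bins of 1 Mb, the SUM44 ratio to GM06990 was 1.16 at 52 Mb, 0.916 at 53 Mb, 0.636 at 54 Mb, 0.493 at 55 Mb, 0.386 at 56 Mb and 0.480 at 57 Mb, and was 1.13 at 58 Mb. Its lowest bin lay just beyond the segment. In BT483 the ratio was lowest at 54 Mb, at 0.208, and at 55 Mb, at 0.225, and was 2.28 at 59 Mb. From 59 to 63 Mb both breast lines lay above GM06990 in far cis: in the bin at 60 Mb the levels were 4.54 and 3.92 in BT483, 3.12 and 3.08 in SUM44, and 2.08 and 1.91 in GM06990. In trans the same bin had 1.47 and 0.948 in BT483, 0.668 and 0.551 in SUM44, and 1.35 and 1.19 in GM06990. Over the longer stretches the SUM44 far cis ratio was 1.00 on the p arm, 1.23 before the segment and 0.988 beyond it. In the bin at 66 Mb the far cis ratio to GM06990 was 0.456 in SUM44 and 0.276 in BT483. Of the 455 distal far cis windows tested, 68 rose and 184 fell in SUM44 over GM06990, or 40.4%, with a median log2 ratio of -0.59. In BT483 over GM06990, 112 of them rose and 257 fell, or 56.5%, with a median of -1.13. The far cis fall was thus not particular to the segment in BT483 or in SUM44.

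The captured chromosome 16 region itself lies on the distal arm, which allows its trans contacts to be set beside the windows around it. It made 26.6% (exact Clopper-Pearson 95% interval 26.5 to 26.6) and 13.0% (13.0 to 13.0) of all trans contacts in the BT483 replicates, 12.6% (12.6 to 12.7) and 12.5% (12.5 to 12.6) in SUM44, and 20.8% (20.7 to 20.9) and 20.4% (20.4 to 20.5) in GM06990. These intervals again cover at most counting error, and those of the BT483 replicates lie far apart. The SUM44 share was 0.610 of the GM06990 share. The 41 windows within 1 Mb of it, seen from the other 5 regions, had levels of 1.20 and 0.920 in BT483, 0.639 and 0.701 in SUM44, and 1.09 and 1.07 in GM06990. The SUM44 level there was 0.622 of that of GM06990. These ratios were less alike at the other captured regions: the share and the level of the windows around were 1.28 and 0.777 times GM06990 for chromosome 2, 1.38 and 1.22 for chromosome 8, 0.899 and 0.555 for chromosome 3, 0.784 and 0.593 for chromosome 9, and 0.835 and 0.647 for chromosome 18. In BT483 both measures were higher in replicate 1 than in replicate 2, and GM06990 lay between the replicates in both.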

How the data were processed

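The authors deposited raw counts of ligated pairs per 50 kb window or HindIII fragment, 1 column per replicate, for trans, far cis and near cis contacts. Per the submitters' processing notes, CASAVA 1.8 was used and positions refer to GRCh37; for the aligner, the filters and duplicate pairs, the settings are not given in the sources used here. The table of bait coordinates that the authors deposited holds positions only, and their within-capture tables were not used.

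The 50 kb windows, the segment, the arms, the steps and the rules for naming windows were chosen with earlier results of these data known. Levels and ratios were computed in Python 3.11.15. Counts summed over the captured regions in trans to each window were tested with edgeR 4.0.16 (R 4.3.3) in 1 fit of all 6 columns, with the log trans totals as offset, for windows with at least 50 contacts over the 6 columns; 1336 windows of chromosome 16 outside the segment and all 67 inside it passed. Far cis windows beyond 5 Mb were tested likewise with far cis totals. DESeq2 1.42.0, TMM factors, other scalings, no filter, bins of 1 Mb, each captured region apart, a replicate block and leaving out each replicate were alternatives. The tests were first run on simulated data. Named windows were the 5 tallest per line, the 3 on either side of each segment end, the 5 largest changes each way against GM06990 and the highest and lowest 1 Mb bin of each arm; the 5 largest in a contrast are those past the threshold. Far cis bins and levels by captured region were chosen after their values were seen.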

Additional observations from a re-analysis of the deposited data

Results flagged for a closer look

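Flagged were 3 counts from the edgeR test of BT483 over SUM44, each set beside the share over all windows in the main fit. Counts from the other fits have no such share beside them, so they cannot be read against it. The p arm count lay below that share in the main fit, so by that fit the count does not set the p arm apart. Relative to all windows, the p arm median log2 ratio of BT483 over SUM44 was -0.47 with trans totals and -0.59 with TMM factors. On the q arm beyond the segment, 128 of 633 trans windows rose in BT483 over SUM44, or 20.2%, where 9.31% rose over all windows; the count was 39 with TMM factors, 7 and 8 without SUM44 replicate 1 or 2, and 40 and 39 without GM06990 replicate 1 or 2. On the p arm, 16 of 579 trans windows fell in BT483 over SUM44, or 2.76%, below the 7.56% over all windows; the count was 53 with TMM factors and 0 without any 1 replicate of SUM44 or GM06990. In the far cis contacts of the chromosome 16 captured region, 56 of the 67 windows of the segment fell in BT483 over SUM44, or 83.6%, where 9.45% fell over all windows; the count was 8 with TMM factors, and 36 and 34 without SUM44 replicate 1 or 2. Groups of 2 replicates are too small to look for a single sample that stands apart.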

How the results depend on the processing

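The segment stood above the rest of chromosome 16 in SUM44 under every alternative run, and the p arm stood above the q arm in SUM44 under all but the one that kept the segment in the q arm, where its ratio turned to 0.788 by that construction. For the segment over the rest, the SUM44 ratio was 8.54 without windows at 0 or tall in all lines. It was 10.2 by the median over windows and 9.95 with contacts summed over regions. Over its windows above 5 times the median in SUM44 it was 13.7, and with the ends moved inwards 10.8. In the high step only, a setting chosen after seeing the data, it was 14.0, and from 1 captured region alone 7.63 to 11.9. In these settings GM06990 had 1.38, 1.60, 1.54, 1.66, 1.52, 1.53 and 1.42 to 1.75, and 1.60 with the median trans window as scale. The windows above 5 times the median and the high step were picked by their SUM44 level, so their higher SUM44 ratios follow from that choice. The segment itself was chosen from these counts, so no setting is a test of it. For the p over the q arm, one region alone gave 1.27 to 1.41 in SUM44 and 0.765 to 0.803 in GM06990. Summed contacts gave 1.31 in SUM44; GM06990 had 0.780 without windows at 0 or tall, 0.733 by the median and 0.773 with the segment kept. The level of the whole chromosome with the median trans window as scale was 0.951 in BT483, 1.23 in SUM44 and 0.941 in GM06990, and without windows at 0 or tall 0.938, 1.11 and 0.937. By the median over windows of each region it was 0.639 in SUM44 and 0.764 in GM06990. One region alone gave 0.852 to 1.14 in SUM44 and 0.796 to 0.859 in GM06990, and summed contacts 0.946 in SUM44.

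Shares of chromosome 16 windows called outside the segment moved more, and the cause was not tested. The shares over all windows in the same alternative fits are not set beside them here. In SUM44 over GM06990 the main shares were 2.47% higher and 9.58% lower. They were 7.63% and 3.37% with TMM factors, 7.63% and 3.29% with DESeq2 size factors, 0% and 0.299% with DESeq2's test (171 windows at an unadjusted p under 0.05), and 16.7% and 34.6% in bins of 1 Mb; each captured region apart gave 4.66% lower. In BT483 over GM06990 the main shares were 0.449% higher and 0.674% lower. TMM factors gave 0.299% lower, DESeq2 size factors 0.225% lower, DESeq2's test 0% both ways (18 windows unadjusted), bins of 1 Mb 5.13% higher and 0% lower, and each region apart 1.18% lower. In BT483 over SUM44 the main shares were 9.66% higher and 1.35% lower. They were 2.92% and 5.01% with TMM factors, 3.14% and 4.34% with DESeq2 size factors, 0.524% and 0% with DESeq2's test (146 windows unadjusted), and 41.0% and 12.8% in bins of 1 Mb; each region apart gave 3.24% higher. Leaving out one replicate at a time gave 0% to 4.19% higher and 0% to 17.2% lower in BT483 over GM06990, 0% to 6.59% and 0.0749% to 21.8% in SUM44 over GM06990, and 0.524% to 17.1% and 0% to 12% in BT483 over SUM44; in these fits 41 to 572 windows had an unadjusted p under 0.05. Relative to all windows, the SUM44 median stayed below 0 on the distal arm and above 0 on the p arm under every alternative of the fit.

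The share over all far cis windows in the alternative fits is not given here. The share of segment windows lower in far cis was 56.7%, 22.4% and 11.9% with TMM factors for BT483 over GM06990, SUM44 over GM06990 and BT483 over SUM44, against 89.6%, 49.3% and 83.6% in the main fit, and 17.9% with DESeq2's test for SUM44 over GM06990. Without one replicate it ran from 79.1% to 94.0%, from 19.4% to 59.7% and from 50.7% to 91.0%. The deviations of same-numbered replicates had correlations of 0.04, -0.06 and -0.02 between lines over 54654 windows. Single windows held few contacts, so these values cannot show whether the numbers pair replicates. With the replicate block, windows of chromosome 16 outside the segment in SUM44 over GM06990 were 37 higher and 132 lower, and the share higher in BT483 over GM06990 was 0.299%. Windows of 50 kb held few contacts, so single windows were little resolved at this depth, and 2 replicates a line limit every test.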
